A study of Mus musculus with 12 samples.

Results

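The genes described here encode the constitutive proteasome, the protease that degrades ubiquitin-tagged proteins, and its activators. They were measured in mouse splenic follicular B cells before and after crosslinking of the B cell receptor. Members were the genes whose annotated symbol starts with Psma, Psmb, Psmc, Psmd or Psme and a digit, leaving out the 3 immunoproteasome genes Psmb8, Psmb9 and Psmb10. Of the genes on the array, 41 had such a symbol on a probe set naming 1 gene. Of these, 40 passed the filter on low signals and are among the 12190 genes tested. Psmb11, the thymus-specific catalytic subunit, did not pass and reached a signal of at most 29.0 on any array. Psme2, the partner of Psme1, appears only on a probe set that names several genes and was not analysed here. The 40 tested genes comprised 14 subunits of the 20S core, 17 subunits of the 19S regulatory particle, 3 assembly chaperones of the 19S base and 3 activators. The other 3 are Psma8, a germ-cell-type core subunit, and Psmc3ip and Psme3ip1, which match by name but encode no subunit. Psmc3ip encodes a factor of meiotic recombination and Psme3ip1 a protein that binds the activator Psme3.

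Cells came from male 129SvEv mice of 8 weeks that were wild type or carried a conditional deletion of Zfx, an X-linked zinc finger transcription factor, abbreviated cko in the labels. Follicular B cells were flow-sorted as B220+ AA4.1- CD23hi CD21int and were cultured with anti-IgM at 10 µg/mL for 0, 2 or 12 h. The 6 groups, 1 for every genotype at every time, were read on 2 arrays each from 100 ng of RNA amplified in a pair of linear rounds, with 10 µg of labelled RNA on each array. Which Cre line was used, which exon was deleted and whether the 2 arrays of a group came from different mice is information not given in the sources used here. Labelled RNA was hybridized in duplicate, so the p-values reflect array-to-array spread alone, and that spread may be technical.

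The 20S core is a barrel of stacked alpha and beta rings, and Psmb5, Psmb6 and Psmb7 are its beta subunits with proteolytic sites. The 19S particle caps the barrel, and its base holds the ATPases Psmc1 to Psmc6, which unfold substrates, while its lid holds the deubiquitinase Psmd14. Activated lymphocytes grow and renew their proteins, and in immune cells the catalytic subunits can be replaced by Psmb8, Psmb9 and Psmb10, which changes the peptides made for MHC class I.

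The 2% trimmed mean signal was 250 on each of the 12 arrays, and duplicate arrays differed by a median of 0.07 to 0.10 on the log2 scale over the members. Control probe sets divided the arrays into a low set and a high set of 6 each. The actin ratio of 5′ to 3′ signal was 1.80 to 3.33% on arrays of unstimulated cells of both genotypes and of wild type cells at 12 h, and 8.41 to 19.1% on the arrays of both genotypes at 2 h and of cko cells at 12 h. The 18S control signal was 6636 to 10892 in the first set and 1022 to 1299 in the second. Wild type 12 h against 0 h, cko 12 h against 2 h, and the genotypes at 0 h and at 2 h each compare arrays of 1 set, and the other contrasts cross the sets. The brightest Zfx probe set read 983 and 1041 on wild type 0 h arrays and 2189 and 2618 on cko 0 h arrays, so it does not check the genotype and the arrays are called by their label. Of 8 B cell markers on the array, 0 were under a signal of 50, and their summed signal was 77646 to 92720 at 0 h and 28617 to 43798 after stimulation. Summed markers of T and NK cells ran from 1553 to 1709 at 0 h and from 377 to 592 after stimulation, and Cd4 and Ncr1 were under 50 in every group. Summed myeloid markers were 17867 to 18447, 11045 to 11198 and 6237 to 7069 in wild type at 0, 2 and 12 h, against 7996 to 8096, 1928 to 2108 and 1932 to 1951 in cko, with Itgam under 50 in every group. Summed erythroid markers were 1158 to 1284 in wild type and 218 to 227 in cko at 0 h. After stimulation they were 362 to 374 in wild type and 52.2 to 91.3 in cko, with Hba-a1 under 50 in every group. Summed plasma cell markers in wild type were 5959 to 5976 at 0 h and 1899 to 2216 at 12 h. In cko they were 4118 to 4514 and 2562 to 3079. The part of these markers and of the array sets in the results was not tested beyond the values given. In bulk RNA, fewer cells of a type and less RNA per cell cannot be told apart.

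After 12 h of anti-IgM, nearly the whole proteasome was higher in wild type cells. Values are log2 differences of signal + 16 with their SE, n = 2 arrays a group, and a gene is called at a limma adjusted p under 0.05. All 14 core subunits and 16 of the 17 regulatory-particle subunits rose, as did 3 of 3 activators. Over the 40 members, 36 rose and 0 fell, where 24.8% of the 12190 genes tested rose and 23.1% fell. The members' median difference was 0.97, a 1.95-fold rise, against 0.03 over all genes. The 4 members not called were Psmc4, Psmd10, Psma8 and Psme3ip1, named after their values were seen. These groups lie in the same control-probe set, but their control signals did not overlap. The actin ratio was 3.27 and 3.33% at 0 h and 2.11 and 2.27% at 12 h. The 18S signal was 6636 and 7305 at 0 h and 10892 and 10672 at 12 h.

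**Figure D1:**
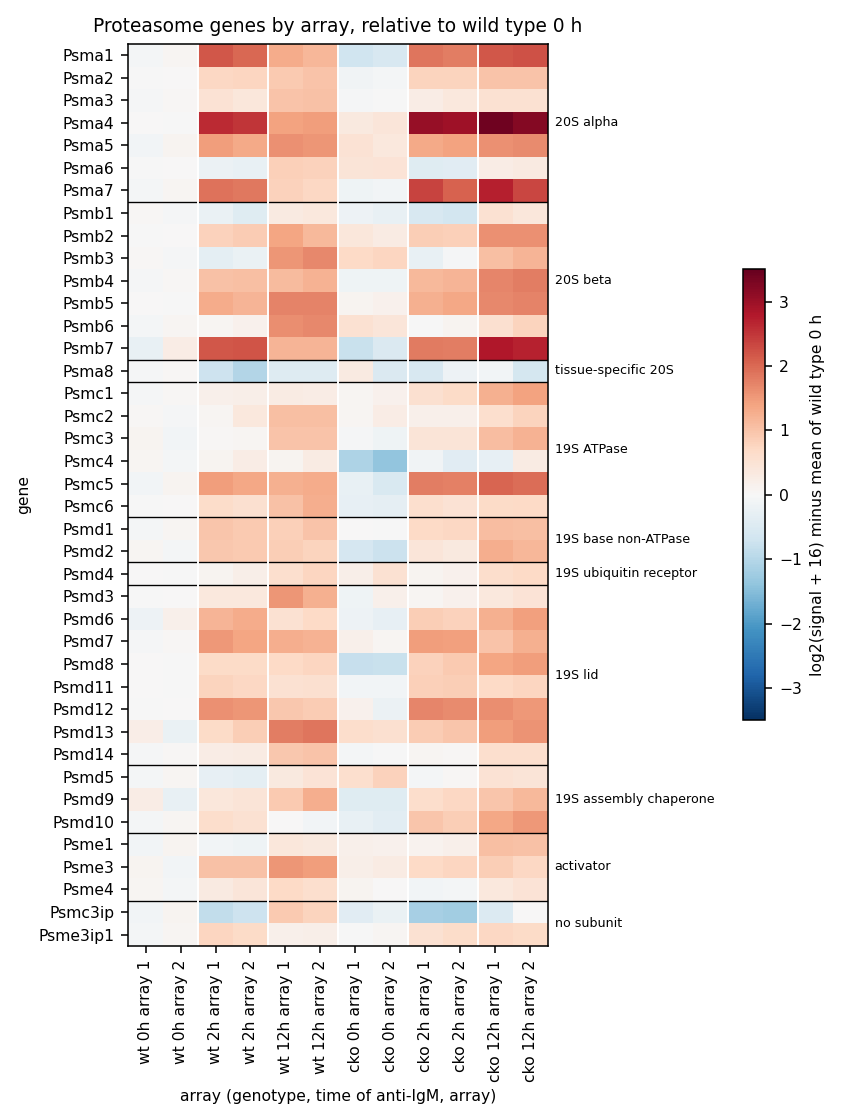
Signal of each of the 40 proteasome genes (rows, by sub-complex) on each of the 12 arrays (columns), as log2(signal + 16) minus the mean of the 2 wild type 0 h arrays. At 12 h of wild type all 14 core genes are above 0, while at 2 h Psma6, Psmb1 and Psmb3 are below.

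At 2 h the response was uneven. In wild type, 28 members rose and 6 fell (over all genes 23.5% rose and 36.2% fell), with a median of 0.64 against -0.24 over all genes. Among the core subunits 10 rose and 3 fell, and among the 17 regulatory subunits 13 rose and 0 fell. The largest rises were those of the alpha-ring genes Psma4, Psma1 and Psma7 and of the catalytic gene Psmb7. Called falls were those of Psmb1, Psmb3 and Psma6 of the core, the chaperone gene Psmd5, Psmc3ip, and Psma8, whose signals were at most 50.8 on any array. Psma6 and Psmb3 fall outside the rule for named genes in this contrast and were named after their values were seen. With each array scaled to 1 median, 32 members rose and 1 fell. With the term for the control-probe sets 20 rose and 2 fell. That term fits 1 genotype difference and 1 time effect for both genotypes. Its array-set effect is read from the genotypes at 12 h, so values with it assume that both respond alike at 12 h. Wild type 2 h against 0 h crosses the control-probe sets, and it shares its 0 h arrays with the 12 h contrast.

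**Figure D2:**
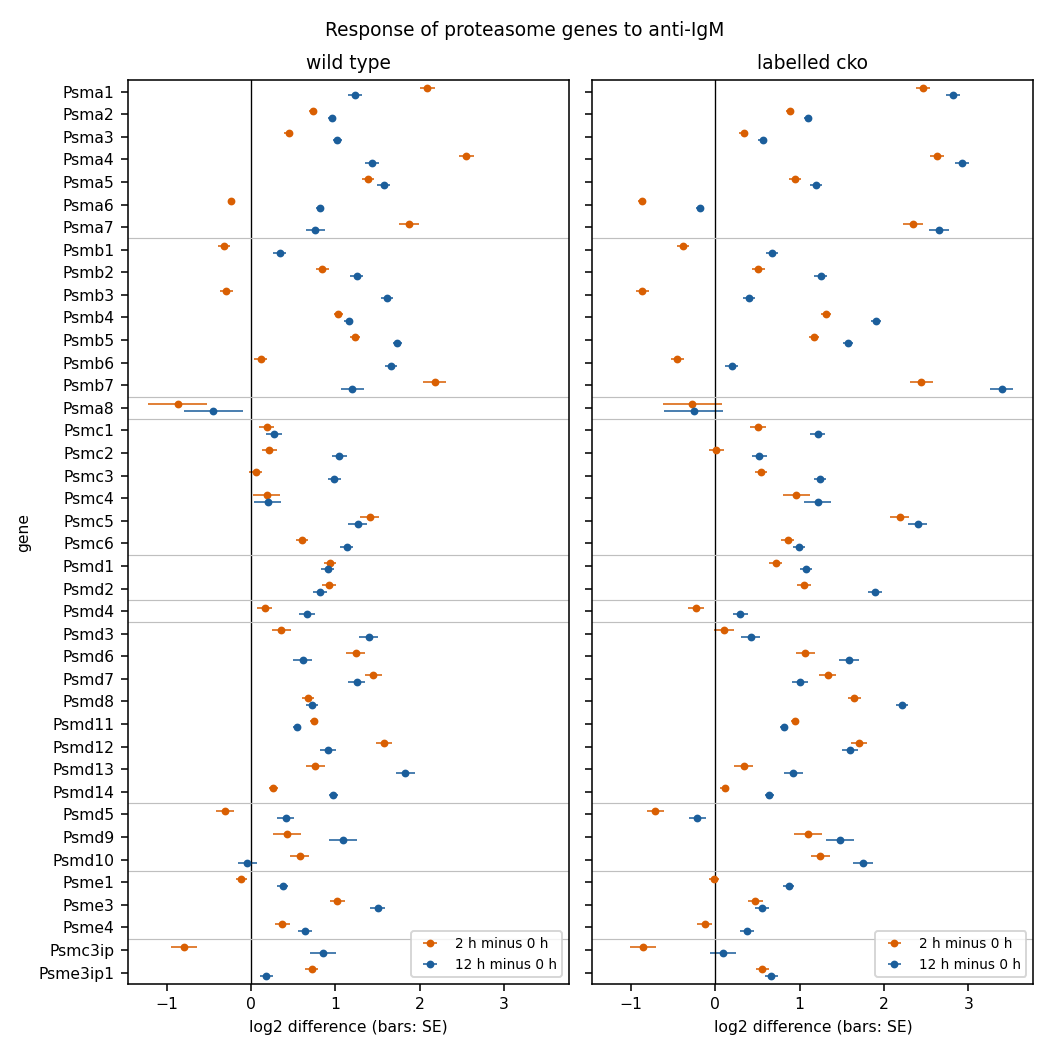
Log2 difference from 0 h (horizontal axis, bars are SE) of each proteasome gene at 2 h and 12 h, in wild type (left) and on arrays labelled cko (right). In wild type the 12 h points of all core and regulatory genes lie right of 0, and the 2 h points run from -0.87 for Psma8 to 2.56 for Psma4.

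The 3 catalytic genes each had a different time course. Psmb5, the chymotrypsin-like subunit, read 3045 and 2999 at 0 h, 7430 and 6858 at 2 h, and 10107 and 10118 at 12 h in wild type. Each time stood above the one before with no overlap, at 1.24 ± 0.06 by 2 h (adjusted p = 2.1e-10) and 1.74 ± 0.06 by 12 h (adjusted p = 2.5e-11). Psmb6, the caspase-like subunit, read 4739 and 5133 at 0 h, 5190 and 5492 at 2 h, and 15332 and 15945 at 12 h. Its 2 h arrays lay just above those of 0 h, by 0.11 ± 0.07 (adjusted p = 0.21), and both 12 h arrays lay far above, at 1.66 ± 0.07 (adjusted p = 4.5e-10). With a term for the control-probe sets its value at 2 h was 1.02, which was called. Psmb7, the trypsin-like subunit, read 283 and 411 at 0 h, 1587 and 1617 at 2 h, and 802 and 804 at 12 h. It was highest at 2 h, with a rise of 2.18 ± 0.14 by 2 h and of 1.20 ± 0.14 by 12 h. With a term for the control-probe sets the rise of Psmb7 at 2 h was 0.25, which was not called. Its change from 2 h to 12 h turned from -0.98 to 1.02. The values of Psmb6 and Psmb7 with this term assume that both genotypes respond alike at 12 h, which was not tested.

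The immunoproteasome genes fell at 2 h in wild type, where Psmb5 and Psmb7 rose and Psmb6 was not called. The 2 h contrasts of both genotypes cross the control-probe sets. Psmb9, which takes the place of Psmb6, read 2992 and 2763 at 0 h, 409 and 390 at 2 h, and 1184 and 1144 at 12 h in wild type, with no overlap between times. It fell by 2.80 on the log2 scale at 2 h and by 1.29 at 12 h. Psmb10, the counterpart of Psmb7, fell by 2.19 at 2 h and by 1.01 at 12 h, from 2922 on both 0 h arrays to 650 and 606 and then 1416 and 1481. Psmb8, the counterpart of Psmb5, fell by 1.64 at 2 h and was 0.05 ± 0.06 from its 0 h level at 12 h (adjusted p = 0.57). On arrays labelled cko the falls at 2 h were 1.40 for Psmb8, 2.06 for Psmb9 and 1.78 for Psmb10, reported as decreases on the log2 scale. There Psmb6 fell as well (-0.45 ± 0.07), while Psmb5 and Psmb7 rose.

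**Figure D3:**
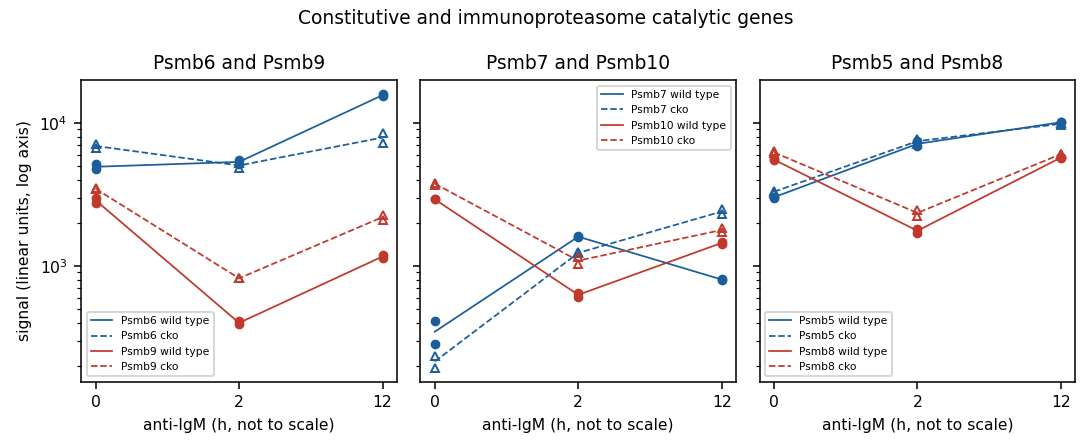
Signal (log axis) of each constitutive catalytic gene and its immunoproteasome counterpart at 0, 2 and 12 h of anti-IgM; points are the 2 arrays of a group (filled circles wild type, open triangles cko, blue constitutive, red immunoproteasome) and lines join group means. Both arrays of Psmb8, Psmb9 and Psmb10 are lower at 2 h than at 0 h in both genotypes, and levels of different genes are not compared because each probe set has its own brightness.

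In the alpha ring, 6 of 7 genes rose at 2 h in wild type and 7 of 7 at 12 h, where 23.5% and 24.8% of all genes rose. Psma4 read 306 and 298 at 0 h, 1921 and 1785 at 2 h, and 830 and 859 at 12 h. All 2 h arrays were above all 12 h arrays, with a rise of 2.56 ± 0.08 at 2 h and 1.44 ± 0.08 at 12 h. Psma1 (2.09 and 1.23) and Psma7 (1.87 and 0.76) had the same order of times, and Psma4, Psma1 and Psma7 fell from 2 h to 12 h by 1.12, 0.86 and 1.11. With the control-probe term these changes turned to 0.31, 0.45 and 0.43, and the rise of Psma7 at 2 h was 0.45 and not called. A further probe set of Psma1 past the filter read 1044 and 1052 at 0 h and 937 and 721 at 2 h, a difference of -0.34, so the rise rests on the probe set used. Psma6 went the other way, from 11584 and 11767 at 0 h to 10086 and 9784 at 2 h and 20731 and 20357 at 12 h. Its groups did not overlap at any time, and it was read by a probe set that can cross-hybridize, while its next brightest probe set was 0.41 higher at 2 h. Psma2, Psma3 and Psma5 rose at both times, by 0.45 to 1.39 at 2 h and by 0.96 to 1.57 at 12 h. A dimmer probe set of Psma3 went the other way, at -1.26 and -0.09.

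In the beta ring, the genes besides the catalytic ones were Psmb1, Psmb2, Psmb3 and Psmb4. Psmb3 read 7103 and 6679 at 0 h, 5419 and 5833 at 2 h, and 20093 and 22174 at 12 h in wild type. It was lowest at 2 h and far above its resting signal at 12 h, with differences of -0.29 ± 0.07 and 1.61 ± 0.07. Its other probe set read 637 and 575, 1431 and 1230, and 1865 and 1901 at these times, so the probe sets share the rise at 12 h and differ at 2 h. Psmb1 fell at 2 h (-0.32 ± 0.07) and rose by 12 h (0.34 ± 0.07), and with median scaling its difference at 2 h was -0.13 and not called. Psmb2 (0.84 and 1.25) and Psmb4 (1.04 and 1.16) rose at both times, and another bright probe set of Psmb4 was at -0.21 and 0.52.

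Of the ATPases of the 19S base, read by the brightest probe set, 3 of the 6 rose in wild type at 2 h and 5 of the 6 at 12 h, with a median of 0.20 and then 1.02. The shares of all genes that rose were 23.5% and 24.8%. Dimmer probe sets gave larger values at 2 h, 1.51 for Psmc2 and 1.63 for Psmc4, and 1.01 and 0.50 at 12 h. Both of these had all arrays of the high control-probe set above all of the low set. A still dimmer Psmc2 probe set, with signals of 40.4 to 74.9, was at -0.30 at 2 h. Psmc5 read 245 and 285 at 0 h, 760 and 697 at 2 h, and 643 and 671 at 12 h, a rise of 1.41 ± 0.11 and 1.26 ± 0.11. Psmc2 rose by 0.22 ± 0.09 at 2 h (adjusted p = 0.046) and by 1.05 ± 0.09 at 12 h. Psmc3 read 2381 and 2083 at 0 h, 2287 and 2343 at 2 h, and 4442 and 4432 at 12 h. Its 0 h and 2 h arrays overlapped, and both 12 h arrays lay above them, by 0.99 ± 0.07. Psmc4 alone of the regulatory subunits was not called at 12 h, at 0.20 ± 0.16 (adjusted p = 0.35), with 1638 and 1475 at 0 h and 1676 and 1901 at 12 h. Values of Psmc2, Psmc3, Psmc4 and Psmc5 here were chosen after they were seen.

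All 8 lid genes rose at both 2 h and 12 h in wild type, against 23.5% and 24.8% of all genes. Psmd13 rose most of all members at 12 h, from 1342 and 985 at 0 h to 1830 and 2108 at 2 h and 3997 and 4251 at 12 h. The groups did not overlap, and the differences were 0.76 ± 0.11 and 1.83 ± 0.11, the second being 0.89 when averaged over its probe sets. Psmd14, which cleaves ubiquitin chains off substrates, read 3889 and 4056, then 4752 and 4810, then 7676 and 7993. It rose by 0.27 ± 0.05 at 2 h and by 0.98 ± 0.05 at 12 h, again with no overlap. Psmd12, Psmd7 and Psmd6 had the largest lid rises at 2 h (1.58, 1.45 and 1.24), and their rises at 12 h were 0.91, 1.25 and 0.61. Of the base genes outside the ATPases, Psmd1 (0.94 and 0.91) and Psmd2 (0.93 and 0.82) rose at both times. Psmd4, a receptor for ubiquitin chains, read 2057 and 2026 at 0 h, 2201 and 2370 at 2 h, and 3064 and 3443 at 12 h. It was not called at 2 h (0.16 ± 0.09, adjusted p = 0.15) and rose by 0.67 ± 0.09 at 12 h, and its mean over several probe sets was 0.06 at 12 h, which was not called.

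The assembly chaperones of the base, which help ATPases join and then leave the finished particle, did not move together. Psmd9 rose at 2 h and 12 h (0.43 and 1.09), while another of its probe sets, of nearly equal brightness, was at -0.99 and -0.48. Psmd10 rose at 2 h (0.58 ± 0.11) and was -0.04 ± 0.11 from rest at 12 h, and Psmd5 fell at 2 h (-0.31 ± 0.10) and rose by 12 h (0.41 ± 0.10). Without wild type 0 h array 2 Psmd5 was at -0.24 and without wild type 2 h array 2 at -0.28, neither called. Of the activators, which open the core without the 19S, Psme3 read 612 and 534 at 0 h, 1184 and 1177 at 2 h, and 1710 and 1594 at 12 h in wild type. The nuclear activator Psme3 thus had no overlap between times, with rises of 1.02 ± 0.09 and, at 12 h, of 2.83-fold. Psme1, the interferon-inducible activator, was not called at 2 h (-0.12 ± 0.06, adjusted p = 0.14) and rose by 0.38 ± 0.06 at 12 h. Psme4, an activator known for histone degradation, rose by 0.37 ± 0.09 and 0.64 ± 0.09, and its mean over several probe sets at 12 h was -0.07. Psmc3ip fell at 2 h (-0.80 ± 0.15) and rose by 12 h (0.85 ± 0.15), and Psme3ip1 rose at 2 h (0.72 ± 0.08) and was 0.18 ± 0.08 at 12 h (adjusted p = 0.064).

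Between 2 h and 12 h in wild type, 22 members rose and 9 fell, where 35.3% of all genes rose and 22% fell. With median scaling the split was 19 rises and 13 falls. The steepest late rises were those of Psmb3 (1.91 ± 0.07), Psmc3ip (1.65 ± 0.15), Psmb6 (1.55 ± 0.07) and Psmd13 (1.06 ± 0.11). For 10 of the 40 members, all 6 arrays of the high control-probe set were above all 6 of the low set, as for 9.52% of all genes, and for 0 they were below, as for 15.3% of all genes. The 10 genes were Psma1, Psma4, Psma7, Psmb7, Psmc5, Psmd6, Psmd10, Psmd11, Psmd12 and Psme3ip1. All 9 members that fell from 2 h to 12 h in wild type were among these 10. By their definition the 10 are lower at 12 h than at 2 h in wild type, whether called or not. Of the other 30 members, 22 rose from 2 h to 12 h. The 2 h and 12 h arrays labelled cko share the high set. From 2 h to 12 h there, 30 members rose and 2 fell (30.2% and 18.7% of all genes). The falls were of Psmd7 (-0.33 ± 0.10) and Psmd11 (-0.13 ± 0.05). The actin ratios of these cko arrays still did not overlap, at 10.6 and 10.8% at 2 h and 19.06 and 18.96% at 12 h. Their 18S signals did, at 1022 and 1085 against 1100 and 1033. The part of this actin step was not tested. Without cko 2 h array 1 or cko 12 h array 1 the number that fell was 0, and without cko 2 h array 2 it was 1. With a term for the control-probe sets, which fits 1 time effect for both genotypes, 28 rose and 1 fell over this interval.

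**Figure D4:**
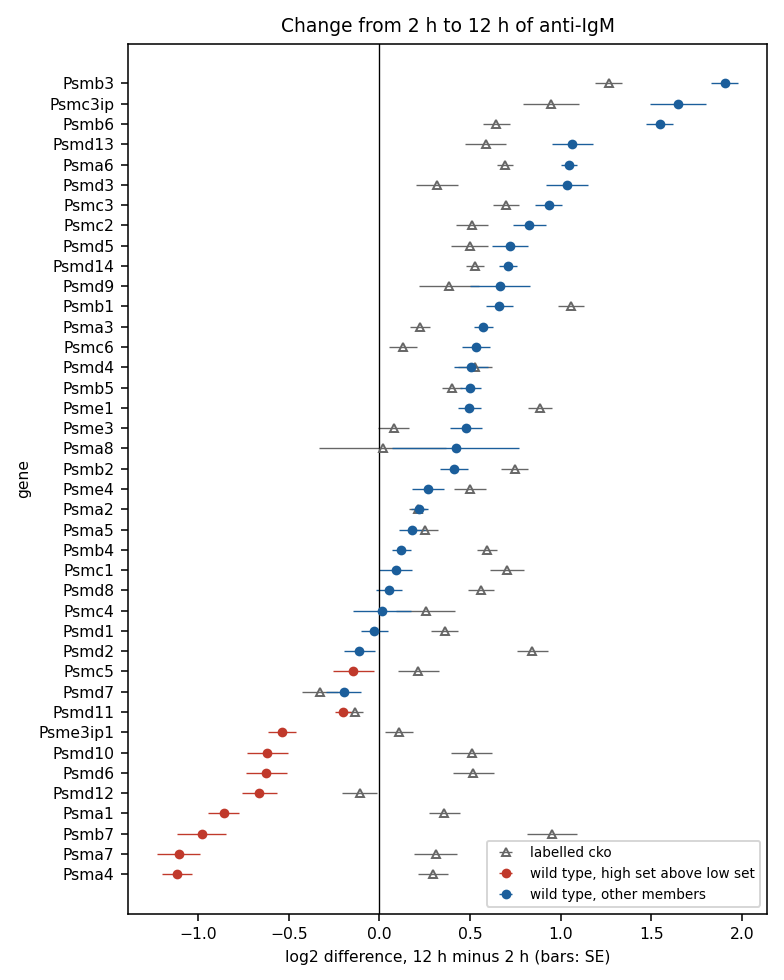
Log2 difference between 12 h and 2 h of anti-IgM (bars are SE) for each proteasome gene, in wild type (filled) and on arrays labelled cko (open); red marks the 10 genes whose 6 high-set arrays all lie above their 6 low-set arrays. The red wild type points lie left of 0 by this definition, since wild type 2 h is in the high set and wild type 12 h in the low set. Psmb3 at 1.91 lies farthest right.

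On arrays labelled cko more members rose than fell at both times. At 2 h 27 members rose and 7 fell (23.8% and 39.2% of all genes), with a median of 0.64 against -0.32 over all genes, and with median scaling 31 rose and 4 fell. At 12 h 36 rose and 1 fell (25.9% and 33.1% of all genes), with a median of 1.04 against -0.20, and with median scaling 36 rose and 0 fell. All 17 regulatory subunits and 13 of 14 core subunits rose at 12 h. Both contrasts cross the control-probe sets. Psmb7 read 193 and 236 at 0 h, 1243 and 1223 at 2 h, and 2495 and 2309 at 12 h, which is a rise of 2.44 ± 0.14 and 3.395 ± 0.14 with no overlap between times. Psma4 read 384 and 411, then 2599 and 2464, then 3324 and 2916, with rises of 2.62 ± 0.08 and 2.92 ± 0.08. The only called fall at 12 h was that of Psma6, from 15968 and 16242 to 13866 and 14498 (-0.18 ± 0.04), and it turned to 0.10 with median scaling, to 0.02 with quantile normalization and to 0.65 with the array-set term.

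Several genes that rose strongly in wild type did so less on arrays labelled cko. Psmb6 read 7140 and 6661 at 0 h, 4859 and 5223 at 2 h, and 7271 and 8543 at 12 h there. It was lowest at 2 h (-0.45 ± 0.07), and at 12 h it was 0.19 ± 0.07 above rest (adjusted p = 0.039) against 1.66 ± 0.07 in wild type. With the control-probe term the value at 2 h turned to 1.02. The genotype difference at 12 h, which crosses the array sets, was -0.99. The term gives 0.20 instead, but its 1 genotype difference is taken from 0 h and 2 h and does not describe 12 h. The rise at 12 h was not called without cko 0 h array 2 (0.14) or without cko 12 h array 2 (0.08). Psme3 rose by 0.47 ± 0.09 and 0.55 ± 0.09 at 2 h and 12 h, against the larger rises of wild type given above. The smaller rise at 2 h rests on the probe set used, since the other Psme3 probe set was at 1.42 and 0.91 on cko arrays and at 1.47 and 1.53 in wild type. Psmb5 rose by 1.17 ± 0.06 and 1.57 ± 0.06, and its response was not called different from wild type at either time (-0.07 ± 0.08, adjusted p = 0.63, and -0.17 ± 0.08, adjusted p = 0.11).

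Testing the difference between the genotypes' responses called members in both directions. Both genotypes' 2 h contrasts cross from the low to the high array set, but by unequal steps. The actin ratio went from 3.27 and 3.33% to 8.51 and 8.41% in wild type. On cko arrays it went from 1.99 and 1.80% to 10.6 and 10.8%, and the part of these steps was not tested. At 2 h the response on cko arrays was larger for 8 members and smaller for 8, against 8.59% and 11.8% of all genes. With median scaling the split was 10 and 5. The number larger was 5 without cko 0 h array 1, cko 0 h array 2 or cko 2 h array 1, and the number smaller was 5 without wild type 0 h array 2 or wild type 2 h array 2. Psmd8, a lid subunit, had the largest difference, 0.98 ± 0.10 (adjusted p = 2.7e-05). It read 774 and 762 at 0 h and 1228 and 1240 at 2 h in wild type, against 436 and 444 and then 1368 and 1464 on cko arrays, so the groups were farther apart at rest than at 2 h. Psmc5 (0.78 ± 0.16), Psmc4 (0.77 ± 0.23) and Psmd10 (0.66 ± 0.16) followed, and Psma6 (-0.64 ± 0.06), Psmb3 (-0.57 ± 0.11), Psmb6 (-0.57 ± 0.11) and Psme3 (-0.55 ± 0.12) were the largest in the other direction. These depend on the probe set: averaged over its probe sets Psmb3 was at 0.04, and Psma6 (-0.35) and Psme3 (-0.30) were no longer called, with other probe sets at 0.25 for Psma6 and -0.06 for Psme3. At 12 h 17 were larger and 13 smaller (18.8% and 24.4% of all genes), or 21 and 6 with median scaling. Wild type stayed in the low set at 12 h and cko did not, so genotype and array set cannot be told apart in this contrast. The largest values were 2.20 ± 0.19 for Psmb7 and 1.89 ± 0.17 for Psma7, both among the 10 genes above in the high set. The lowest were -1.47 ± 0.11 for Psmb6 and -1.21 ± 0.11 for Psmb3, whose other probe set was at 1.81.

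The genotypes had members on both sides before stimulation. At 0 h, within the low array set, 10 members were higher and 10 lower on cko arrays (16.3% and 16% of all genes), with a median of -0.02 against 0.02 over all genes, and with median scaling 9 were higher and 12 lower. With the control-probe term 6 were higher, and without cko 0 h array 2 the number lower was 6. The actin ratios at 0 h did not overlap, at 3.27 and 3.33% in wild type and 1.99 and 1.80% on cko arrays. The 18S signals did, at 6636 and 7305 against 7124 and 7553. Psmc4 read 1638 and 1475 in wild type and 733 and 591 on cko arrays. Both cko arrays were below both wild type arrays, by -1.22 ± 0.16 (adjusted p = 7.9e-05), the largest difference of a member at rest. Psmd8 (-0.78 ± 0.07), Psmd2 (-0.67 ± 0.09) and Psmb7 (-0.64 ± 0.14) were also lower, and Psmb3 (0.72 ± 0.07), Psmd5 (0.69 ± 0.10), Psmd13 (0.59 ± 0.11) and Psmb6 (0.48 ± 0.07) were higher. Psmd2 was -0.03 and Psmd13 0.07 with the mean of their probe sets, neither called, and other probe sets of Psmb3 and Psmc4 were at -0.14 and -0.48. These means include dim probe sets. The other Psmd2 probe set read 14.6 to 47.9 over all arrays, and the dimmest of Psmd13 read 9.82 on cko 0 h array 2. The next brightest probe set of Psmd13 was at 0.14. At 2 h, within the high set, 8 were higher and 9 lower (12.8% and 15.7% of all genes), and 0 of these differed by at least 1.5-fold. Leaving out 1 array at a time left 3 to 5 higher and 4 to 6 lower. The actin ratios did not overlap here either, at 8.51 and 8.41% in wild type and 10.6 and 10.8% on cko arrays. The part of these control differences was not tested. At 12 h 16 were higher and 11 lower (21.4% and 29.9% of all genes), or 22 and 9 with median scaling, and here genotype and array set cannot be told apart.

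The core and the regulatory particle were set against each other by the mean log2 difference over the 14 and the 17 genes, as a description with no test. In wild type the core mean was 0.98 at 2 h and 1.20 at 12 h, and the 19S mean was 0.69 and 0.91. Core minus 19S was 0.28 at both times, while the SD of this value between duplicate arrays was 0.05. On cko arrays the core mean was 0.89 and 1.46 and the 19S mean 0.81 and 1.18, which gives 0.07 and 0.28. At rest the cko arrays were at 0.08 from wild type in the core and at -0.15 in the 19S, a core minus 19S of 0.22. The value at 2 h and 12 h in wild type was 0.08 and 0.19 when a gene's probe sets were averaged, and at 12 h on cko arrays it was 0.01. With the array-set term, which gives both genotypes 1 time effect, it was 0.07 at 2 h and 0.23 at 12 h.

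**Figure D5:**
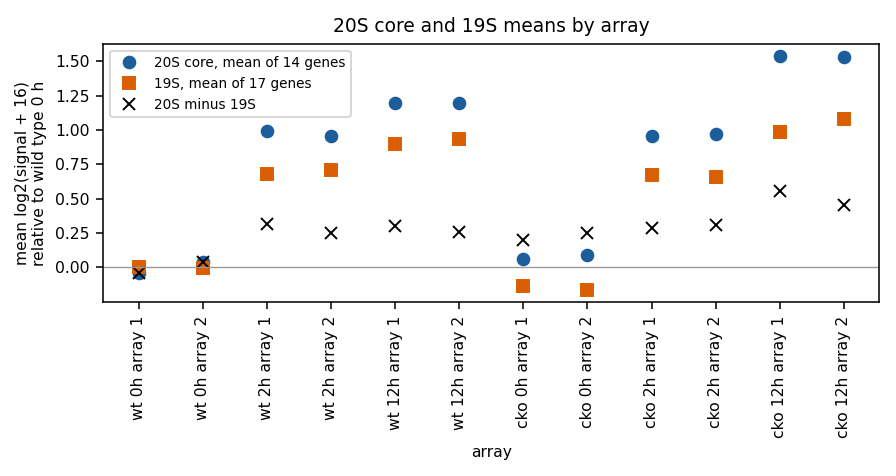
Mean log2(signal + 16) of the 14 core genes (circles) and the 17 regulatory-particle genes (squares) on each of the 12 arrays, relative to wild type 0 h, with their difference (crosses). On all 10 arrays other than wild type 0 h the crosses lie above 0, from 0.20 to 0.56.

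Promoters are shown because core and regulatory genes are encoded at separate loci and rose at the same time points. RefSeq windows of build GRCm38.p6 from 250 bases before to 50 bases after the start were found for 33 of the 40 members, and those missing are Psma8, Psmb1, Psmb2, Psmb7, Psmc3, Psmd3 and Psmd7. The CCAAT box, searched as CCAAT on both strands, was in the windows of 14 of the 33 members (42.4%), against 42.3% of 17492 protein-coding genes. By sub-complex it was in 6 of 11 core genes (54.5%) and 4 of 14 regulatory genes (28.6%). The ETS site, searched as CCGGAAG on both strands, was in 14 of the 33 members (42.4%), against 12.9%. It was in 1 of 11 core genes (9.09%) and 9 of 14 regulatory genes (64.3%). The core of the antioxidant response element, TGACNNNGC on both strands, was in 18.2% of members and 14.8% of all genes. The nuclear respiratory factor site was in 18.2% of members against 9.61%, and the YY1 core AAGATGGC in 9.09% against 3.57%. The letters AGGCCT, the middle of the motif known for Zfx, were in 2 of 33 members, Psmd5 and Psmd10 (6.06%), against 11.5% of all genes. A match is a description of letters and not a bound site, and no test was made. No motif overlapped another in the windows printed, which hold only the 250 bases before the start, 5′ to 3′ on the gene's strand, with matches to any of these motifs in capitals.

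Psma1 and Psmb3 show core promoters with a pair of CCAAT boxes each, in genes whose probe sets differ from each other at 2 h. They lie at chr7:114276117-114276366 (minus strand) and chr11:97703184-97703433 (plus strand).
Psma1: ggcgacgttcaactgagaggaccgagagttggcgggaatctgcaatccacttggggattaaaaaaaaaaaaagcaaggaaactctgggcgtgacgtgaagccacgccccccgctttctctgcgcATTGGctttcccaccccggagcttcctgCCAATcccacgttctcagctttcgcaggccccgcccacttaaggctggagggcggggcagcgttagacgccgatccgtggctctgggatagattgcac
Psmb3: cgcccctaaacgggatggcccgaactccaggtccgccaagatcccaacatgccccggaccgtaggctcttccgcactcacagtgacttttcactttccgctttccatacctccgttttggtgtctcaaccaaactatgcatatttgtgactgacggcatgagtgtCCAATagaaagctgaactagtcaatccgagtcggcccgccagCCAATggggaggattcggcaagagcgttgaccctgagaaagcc

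Psmb6, a catalytic gene that rose by 12 h, has the antioxidant response core as the last bases before its start, at chr11:70525107-70525356 (plus strand).
Psmb6: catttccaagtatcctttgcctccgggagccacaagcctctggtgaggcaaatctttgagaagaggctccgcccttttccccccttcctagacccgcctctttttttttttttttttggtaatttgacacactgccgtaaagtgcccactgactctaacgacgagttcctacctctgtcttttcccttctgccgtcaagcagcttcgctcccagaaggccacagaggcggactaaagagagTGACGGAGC

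Psmd12 and Psmd6, lid genes with rises at both times, each have an ETS site, and Psmd12 also has the antioxidant response core on the other strand near the 5′ end. They lie at chr11:107479278-107479527 (plus strand) and chr14:14120946-14121195 (minus strand).
Psmd12: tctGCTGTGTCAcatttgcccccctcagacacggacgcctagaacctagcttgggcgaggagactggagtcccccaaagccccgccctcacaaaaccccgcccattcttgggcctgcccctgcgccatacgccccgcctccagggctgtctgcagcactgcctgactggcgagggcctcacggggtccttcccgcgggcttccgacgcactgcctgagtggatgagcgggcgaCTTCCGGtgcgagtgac
Psmd6: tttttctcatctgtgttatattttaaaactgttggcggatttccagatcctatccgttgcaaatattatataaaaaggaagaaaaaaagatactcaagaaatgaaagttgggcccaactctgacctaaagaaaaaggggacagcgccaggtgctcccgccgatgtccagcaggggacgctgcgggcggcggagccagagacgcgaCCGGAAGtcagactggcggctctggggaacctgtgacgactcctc

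Other genes of the pathway were read from lists of assembly factors, associated factors, regulators and ubiquitin-handling genes. Of 10 assembly and inhibitor genes tested, 3 of them the chaperones above, 7 rose and 2 fell at 2 h in wild type, and 7 rose and 1 fell at 12 h. Over all genes 23.5% rose and 36.2% fell at 2 h, and 24.8% rose and 23.1% fell at 12 h, which is the background for each list. Psmg1, a chaperone that starts the alpha ring, read 273 and 261 at 0 h, 745 and 766 at 2 h, and 750 and 922 at 12 h. Both stimulated times lay above rest, by 1.45 ± 0.12 and 1.58 ± 0.12, and Pomp, which helps assemble the core, rose by 1.04 ± 0.09 and 1.03 ± 0.09. With the array-set term Pomp was at 0.41 at 2 h and not called. Akirin2, which carries proteasomes into the nucleus, fell by 0.55 at 2 h and by 0.18 at 12 h on the log2 scale. Of 8 associated factors tested, 4 rose and 3 fell at 2 h, and 4 rose and 2 fell at 12 h, with Uchl5, a deubiquitinase of the 19S, at 1.52 ± 0.08 and 0.32 ± 0.08.

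Among 11 regulators of proteasome genes tested, 4 rose and 4 fell at 2 h (over all genes 23.5% and 36.2%) and 4 rose and 3 fell at 12 h (24.8% and 23.1%) in wild type, so the regulators as a list are near the background. Nfe2l1, the factor known to restore proteasome genes when proteasomes are blocked, read 551 and 555 at 0 h, 560 and 558 at 2 h, and 477 and 560 at 12 h. Its groups were close at all times and it was not called, at 0.02 ± 0.10 and -0.09 ± 0.10. Nfe2l2, its relative that answers oxidative stress, read 494 and 428, then 2435 and 2242, then 411 and 404. It was high at 2 h alone, at 2.31 ± 0.11, and averaged over its probe sets the value was 0.19, which was not called. Its partner gene Maff rose by 3.98 ± 0.14 at 2 h, from 191 and 238 to 3570 and 3606, and was 0.08 ± 0.14 from rest at 12 h. Bach1, a repressor at the same element, rose by 1.35 ± 0.07 and Mafg by 1.54 ± 0.11 at 2 h. On cko arrays Nfe2l1 rose by 0.27 ± 0.10 and 0.88 ± 0.10, the latter being -0.03 with the array-set term. Nfya, a subunit of the CCAAT-binding factor, fell by 1.77 at 2 h and by 0.82 at 12 h on the log2 scale. Of 8 ubiquitin-handling genes tested, 6 rose and 1 fell at each time, against the same background, with the shuttle gene Rad23b at 1.84 ± 0.10 and 0.67 ± 0.10 and Vcp, a segregase that unfolds ubiquitin-tagged proteins, at 0.97 ± 0.08 and 1.16 ± 0.08.

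Probe sets of the same gene often differed. Of the 21 members with several probe sets past the filter, 12 had probe sets of opposite sign at 2 h in wild type and 8 at 12 h. The 12 at 2 h were Psma1, Psma3, Psma6, Psmb3, Psmb4, Psmc2, Psmc3ip, Psmd2, Psmd6, Psmd9, Psmd11 and Psme4. Some rest on a dim probe set, with signals of 14.6 to 47.9 for Psmd2 and 4.42 to 66.9 for Psmd11. Others rest on a bright one, with 3846 to 7255 for Psmb4. The share with opposite signs was not computed over all 5566 genes with several probe sets. Of the 40 further probe sets of members, 9 (22.5%) had all high-set arrays above all low-set arrays, against 12.1% of all probe sets past the filter. A second probe set of Psmd7 read 41.8 and 34.3 at 0 h, 268 and 277 at 2 h, and 44.3 and 57.9 at 12 h in wild type, and 307 and 336 at 12 h on cko arrays. Its high values were thus the arrays of the high set, while the brighter probe set of Psmd7 was above rest at both times in both genotypes. The probe sets used were unique to 1 transcript by the array's naming for 22 members, shared between transcripts of a gene for 13, shared with other genes for 3 (Psmc3ip, Psmd11 and Psme4), and open to cross-hybridization for 2 (Psma6 and Psmc2). Averaged over all probe sets of each gene, 29 members rose and 4 fell at 2 h in wild type, and 33 rose and 0 fell at 12 h.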

How the data were processed

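RNA was hybridized to Affymetrix whole-genome mouse expression arrays, 12 in all, 2 for each of 6 groups. The deposited values are linear signal intensities that the authors made with GCOS 1.4, per the submitters' processing notes, with no summarisation method given in the sources used here. They were analysed as log2(signal + 16), without normalizing again. Of 45101 probe sets, 34945 named 1 gene in the platform annotation. Probe sets had to have a mean log2 value above the 40th percentile (5.14), and the brightest probe set stood for its gene. The 6 group means were fitted with limma 3.58.1 in R 4.3.3 (trended eBayes, 6 residual and 7.29 prior degrees of freedom), with Benjamini-Hochberg adjustment over 12190 genes in each of 11 contrasts. The number of arrays limits the precision. Data were simulated for wild type 12 h against 0 h over the 12190 genes, with all groups equal but for 50 genes changed at each step. The fit recovered 34% of genes changed by 0.5, 58% by 1, 52% by -1 and 90% by 2 on the log2 scale, with 10 false calls. In the real contrast 24.8% of genes rose and 23.1% fell. With so few changed genes the adjustment was stricter in the simulation, so these shares are not the recovery in the real contrast.

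Members and gene lists were chosen with earlier results of these data known. Named were the catalytic genes, Psmd14, Psmd4, the activators, the members that are no subunit, and in each contrast the 4 called members with the largest rise and the 4 with the largest fall, with the 4 called genes of smallest p of each other list. Other members are described to account for the whole set. Alternatives were quantile and median scaling, pseudocounts of 1 and 64, other filters, no trend, fits of the compared groups alone, a replicate block, averaging the probe sets of a gene, a term for the control-probe sets, a minimum of 1.5-fold, and leaving out each array.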

Additional observations from a re-analysis of the deposited data

Results flagged for a closer look

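The response to anti-IgM differed between the genotypes by the test of the difference itself (limma, adjusted p under 0.05 over 12190 genes) for the members named here, each with the response on arrays labelled cko minus that in wild type, on the log2 scale. At 2 h the response was larger on cko arrays for Psmd8 (0.98), Psmc5 (0.78), Psmc4 (0.77), Psmd10 (0.67), Psmc3 (0.49), Psma1 (0.37), Psmb4 (0.28) and Psmd11 (0.20). It was smaller for Psma6 (-0.64), Psmb3 (-0.57), Psmb6 (-0.57), Psme3 (-0.55), Psme4 (-0.50), Psma5 (-0.45), Psmd4 (-0.39) and Psmb2 (-0.34). Of the 21 members with several probe sets past the filter, 15 had probe sets of opposite sign in this difference. At 2 h both genotypes' contrasts cross from the low to the high control-probe set, but with unequal steps in the actin ratio.

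At 12 h the response was larger on cko arrays for Psmb7 (2.20), Psma7 (1.89), Psmd10 (1.79), Psma1 (1.59), Psmd8 (1.49), Psma4 (1.48), Psmc5 (1.14), Psmd2 (1.08), Psmc4 (1.02), Psmd6 (0.97), Psmc1 (0.94), Psmb4 (0.75), Psmd12 (0.68), Psme1 (0.49), Psme3ip1 (0.48), Psmb1 (0.34) and Psmd11 (0.27). It was smaller for Psmb6 (-1.47), Psmb3 (-1.21), Psma6 (-0.998), Psmd3 (-0.98), Psme3 (-0.95), Psmd13 (-0.90), Psmc3ip (-0.76), Psmd5 (-0.62), Psmc2 (-0.53), Psma3 (-0.46), Psma5 (-0.38), Psmd4 (-0.37) and Psmd14 (-0.34). Of the 21 members with several probe sets past the filter, 15 had probe sets of opposite sign in this difference. Among those listed as smaller, another probe set was at 1.81 for Psmb3, 1.44 for Psmd4 and 1.35 for Psma5. For Psmc2 and Psmc3ip another was at 1.34. Among those listed as larger, another was at -0.98 for Psmd11 and -0.59 for Psmb4. Here the wild type arrays are in 1 control-probe set and the cko 12 h arrays in the other, so genotype and array set cannot be told apart. No group was tested for an outlying array, since each has 2.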

How the results depend on the processing

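Directions of the members' counts held for wild type 12 h against 0 h, where 31 to 37 rose and 0 fell under the alternatives. The alternatives below moved a value beyond the stated limits, and where fewer genes, arrays or probe sets do not account for it the cause was not tested. With median scaling, the count was 1 lower in wild type 2 h against 0 h, 4 lower in cko 2 h against 0 h, 0 lower in cko 12 h against 0 h, 1 lower in cko 12 h against 2 h, 5 lower in the interaction at 2 h, 6 lower in the interaction at 12 h. With the control-probe term, the count was 2 lower in wild type 2 h against 0 h, 1 lower in wild type 12 h against 2 h, 2 lower in cko 2 h against 0 h, 0 lower in cko 12 h against 0 h, 1 lower in cko 12 h against 2 h, 6 higher in the genotypes at 0 h, 6 higher in the genotypes at 12 h, 7 lower in the genotypes at 12 h, and core minus 19S was 0.074 in wild type 2 h against 0 h, 0.23 in wild type 12 h against 0 h, 0.16 in wild type 12 h against 2 h, 0.23 in cko 12 h against 0 h, 0.16 in cko 12 h against 2 h, 0.12 in the genotypes at 0 h, 0.12 in the genotypes at 2 h, 0.12 in the genotypes at 12 h. At 1.5-fold or more, the count was 2 lower in wild type 2 h against 0 h, 12 higher in wild type 12 h against 2 h, 4 lower in cko 2 h against 0 h, 0 lower in cko 12 h against 0 h, 13 higher in cko 12 h against 2 h, 0 lower in cko 12 h against 2 h, 3 higher in the genotypes at 0 h, 5 lower in the genotypes at 0 h, 0 higher in the genotypes at 2 h, 0 lower in the genotypes at 2 h, 4 lower in the genotypes at 12 h, 4 higher in the interaction at 2 h, 1 lower in the interaction at 2 h, 8 lower in the interaction at 12 h. With the mean of probe sets, the count was 4 lower in cko 2 h against 0 h, 2 lower in cko 12 h against 0 h, 6 higher in the genotypes at 0 h, 2 lower in the genotypes at 2 h, 6 lower in the genotypes at 12 h, 1 lower in the interaction at 2 h, 7 lower in the interaction at 12 h, and core minus 19S was 0.078 in wild type 2 h against 0 h, 0.19 in wild type 12 h against 0 h, 0.11 in wild type 12 h against 2 h, -0.11 in cko 2 h against 0 h, 0.0060 in cko 12 h against 0 h, 0.11 in cko 12 h against 2 h, 0.041 in the genotypes at 12 h, -0.18 in the interaction at 12 h. Without the trend, the count was 0 lower in cko 12 h against 0 h, 1 lower in cko 12 h against 2 h, 4 higher in the genotypes at 2 h, 2 lower in the genotypes at 2 h, 4 higher in the interaction at 2 h, 5 lower in the interaction at 2 h. With only the compared groups, the count was 1 lower in cko 12 h against 2 h. With quantile normalization, core minus 19S was 0.17 in wild type 12 h against 0 h, -0.14 in wild type 12 h against 2 h, 0.17 in cko 2 h against 0 h, 0.35 in cko 12 h against 0 h, 0.17 in the genotypes at 0 h, 0.34 in the genotypes at 12 h, -0.14 in the interaction at 2 h, 0.17 in the interaction at 12 h.

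With the control-probe term the sign turned in wild type 2 h against 0 h for Psmg4 (-0.20), in wild type 12 h against 2 h for Psmb7 (1.02), Psme3 (-0.059), Psme3ip1 (0.068), Psma4 (0.31), Psma7 (0.43), Psma1 (0.45), in cko 2 h against 0 h for Psmb6 (1.02), Psmd4 (0.14), Psma6 (0.12), Psmb3 (0.35), Psmg4 (-0.20), Zfand5 (0.40), Txnl1 (0.50). It also turned in cko 12 h against 0 h for Psma6 (0.65), Nfe2l1 (-0.032), Maff (0.021), in the genotypes at 0 h for Psme3 (-0.032), in the genotypes at 2 h for Psmc5 (-0.018). Turns were seen too in the genotypes at 12 h for Psmb6 (0.20), Psmb7 (-0.51), Psme3ip1 (-0.048). The term fits 1 genotype difference, taken from 0 h and 2 h, so these last values do not describe 12 h. With the mean of probe sets the sign turned in wild type 12 h against 0 h for Psme4 (-0.065), in wild type 12 h against 2 h for Psmd4 (-0.71), Psme4 (-0.51), in cko 2 h against 0 h for Psmd4 (0.70), Psmb3 (0.45), Zfand5 (0.26), Txnl1 (0.93), Nfe2l2 (-0.11). It also turned in cko 12 h against 2 h for Psme3 (-0.21), in the genotypes at 2 h for Psme3 (0.049), in the genotypes at 12 h for Psmd4 (0.89), Psmb8 (-0.39). Turns were seen too in the interaction at 2 h for Psmb3 (0.036), in the interaction at 12 h for Psmd4 (0.84), Psmc3ip (0.29), Psmb3 (0.30). With quantile normalization the sign turned in wild type 12 h against 0 h for Psmb8 (-0.16), in cko 12 h against 0 h for Psma6 (0.019), in the genotypes at 12 h for Psmb5 (0.26). It also turned in the interaction at 12 h for Psmb5 (0.18). With median scaling the sign turned in cko 2 h against 0 h for Psmd4 (0.055), Psme1 (0.27), in cko 12 h against 0 h for Psma6 (0.10), Psmb8 (0.25).

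Leaving out 1 array at a time gave counts of 1 to 2 lower in cko 12 h against 0 h, 0 to 2 lower in cko 12 h against 2 h, 6 to 8 lower in the genotypes at 0 h, 3 to 5 higher in the genotypes at 2 h, 4 to 6 lower in the genotypes at 2 h, 5 to 7 higher in the interaction at 2 h, 5 to 8 lower in the interaction at 2 h. It gave core minus 19S of 0.23 to 0.33 in cko 12 h against 0 h, 0.16 to 0.26 in cko 12 h against 2 h, 0.17 to 0.28 in the genotypes at 12 h, -0.052 to 0.052 in the interaction at 12 h. The lone array left was assumed to vary like the other groups.

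With the replicate number as a block the counts higher and lower were 28 and 6 in wild type 2 h against 0 h, 36 and 0 in wild type 12 h against 0 h, 22 and 9 in wild type 12 h against 2 h, 27 and 7 in cko 2 h against 0 h, 36 and 1 in cko 12 h against 0 h, 30 and 2 in cko 12 h against 2 h, 10 and 9 in the genotypes at 0 h, 8 and 10 in the genotypes at 2 h, 16 and 11 in the genotypes at 12 h, 7 and 8 in the interaction at 2 h, 17 and 13 in the interaction at 12 h. Same-numbered arrays did not deviate together (correlations of -0.01 to 0.01 over 15 pairs of groups), so the numbers are not taken to pair arrays. Fits with the array-set term have no interaction. Their 1 genotype difference comes from 0 h and 2 h and is repeated for 12 h. Their array-set effect comes from the genotypes at 12 h, so they assume that both genotypes respond alike there. The number of arrays limits what small differences can be called.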
